A study of Mus musculus with 18 samples.

Results

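Potassium channel subunit genes were followed in the retina of male C57BL6/J mice, 2 months old, after an injection into the vitreous of the eye. The agent was BSS, the vehicle control, dexamethasone (DEX) or triamcinolone (TAA in the labels), both synthetic glucocorticoids, and retinas were collected at day 7 or day 30. The 6 groups of agent and day held 3 biological replicates each, and every replicate was hybridised to its own Affymetrix array, which gave 18 arrays. All groups shared the injection, no group was left without one, the labels give no dose, and they do not say whether replicates were single animals. The genes were chosen by symbol, as those starting with Kcn and continuing with a letter and a digit. Of 71 such genes, Kcnj10, Kcnj2 and Kcnj13 were left out by the rule, and the remaining 68 stood among 18193 genes measured. Of the 68, 67 encode channel subunits, and the symbol rule also took in Kcnq1ot1, a noncoding RNA transcribed opposite Kcnq1.

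Potassium channels let potassium leave or enter cells along its gradient, and so set the resting potential, the shape of spikes and the response to transmitters. Most are assemblies of pore-forming subunits, some of which are electrically silent alone and only modify partner subunits. In retina, photoreceptors, bipolar cells, ganglion cells, Müller glia and pericytes each carry their own set: rods and cones use Kcnv2 to shape their light response, starburst amacrine cells use Kv3 channels, and pericytes use the ATP-sensitive channel that contains Kcnj8. The families followed here were 7 Kv1 subunits, 3 Kv3, 3 Kv4, 3 Kv7, 9 silent modifiers, 6 EAG, ERG and ELK subunits, 5 KCNE accessory subunits, 12 inward rectifiers, 12 two-pore-domain subunits, 4 small and intermediate conductance calcium-activated subunits, and 3 of the Kcnt and Kcnu genes.

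The windows of 250 bases upstream of the start of 3 of these genes are shown because Kcng4 was the single subunit gene to pass the test in any comparison, and Kcnj6 and Kcnk2, both named in the comparisons below, hold the half-site of the glucocorticoid receptor's response element. The sequences are RefSeq's, of build GRCm38.p6, given 5′ to 3′ on the gene's strand, and capitals mark the half-site AGAACA, searched on both strands. Kcng4 lies on the minus strand, with its window at chr8:119635681-119635930, and holds no half-site. The minus-strand window of Kcnj6 is chr16:94997697-94997946, and that of Kcnk2, also on the minus strand, is chr1:189402274-189402523.
Kcng4: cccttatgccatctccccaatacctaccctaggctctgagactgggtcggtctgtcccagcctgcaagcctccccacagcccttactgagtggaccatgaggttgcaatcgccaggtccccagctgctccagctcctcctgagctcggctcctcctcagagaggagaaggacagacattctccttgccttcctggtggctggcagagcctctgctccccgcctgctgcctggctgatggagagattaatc
Kcnj6: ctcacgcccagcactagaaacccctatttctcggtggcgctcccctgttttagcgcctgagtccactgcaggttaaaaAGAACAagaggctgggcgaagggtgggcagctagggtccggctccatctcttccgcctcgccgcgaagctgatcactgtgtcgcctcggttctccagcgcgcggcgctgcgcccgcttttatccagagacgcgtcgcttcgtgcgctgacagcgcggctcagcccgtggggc
Kcnk2: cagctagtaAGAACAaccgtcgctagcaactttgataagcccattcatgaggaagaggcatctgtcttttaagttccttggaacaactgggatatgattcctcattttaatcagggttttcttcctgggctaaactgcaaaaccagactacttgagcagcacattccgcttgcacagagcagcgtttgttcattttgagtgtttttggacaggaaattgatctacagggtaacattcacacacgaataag
Of the 68 genes, 50 had a window, and the half-site stood in 3 of them (Kcnj1, Kcnj6 and Kcnk2), or 6%, against 16.2% of 27025 promoter windows of all genes. The full palindromic element, a pair of half-sites facing each other, was in 0 of the 50 and in 0.0037% of all windows. The channel windows had a median GC content of 58.8% against 52% for all genes. A match describes these letters only, and none was measured as a bound site.

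The deposited values were centred on 0 for each probe set, so they hold differences between arrays and no expression level. No order of abundance among the channels, and no check of retinal markers by level, could be taken from them. Values on single arrays are therefore log2 values relative to the probe set's median over the 18 arrays, and differences between groups are log2 differences with the standard error of the limma fit (±, n = 3 arrays per group). Adjusted p is limma's after Benjamini-Hochberg adjustment for 18193 tested genes, and a gene passed below 0.05. A group was said not to overlap another when all 3 of its arrays lay above, or all below, all 3 of the other's. The 95% interval of a difference reached a median of 0.301 log2 units to either side over the 68 genes (range 0.181 to 0.558). The TAA day 7 replicate 2 and TAA day 30 replicate 2 arrays were the widest over all genes, with standard deviations of 0.378 and 0.376 log2 units. On 1 of these 2 arrays lay the highest or lowest value of 32 of the 68 genes, against 50.6% of all genes.

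**Figure D1:**
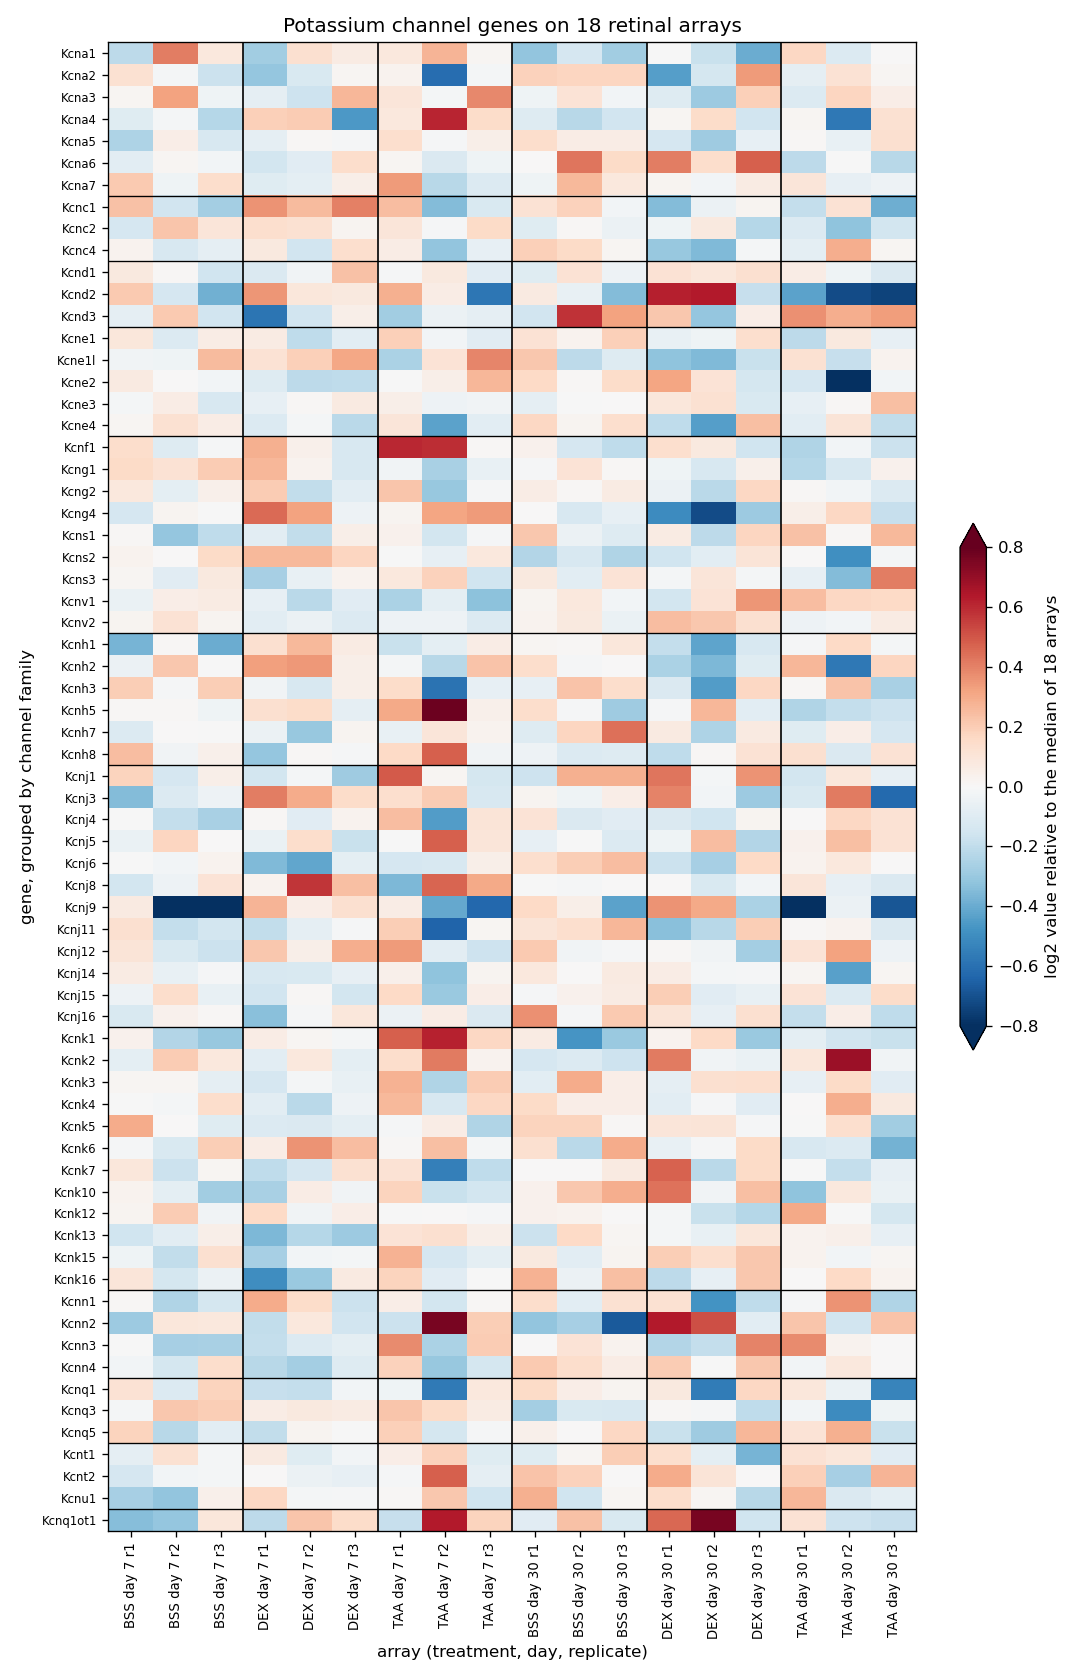
Heat map of the 68 genes (rows, by family) on 18 arrays (columns, by group), coloured by the log2 value relative to the gene's median over all arrays. The TAA replicate 2 arrays of day 7 and day 30 hold the highest or lowest value of 32 of the 68 genes.

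Of the 68 genes, 1 passed in 1 of 11 comparisons. Kcng4 fell between day 7 and day 30 in the DEX eyes, a comparison in which 2.63% of all genes passed (479 of 18193) and 2.04% passed as lower. No channel gene passed for either drug against vehicle at either day, where 0.0055% of all genes passed for TAA at day 7 and 0% for DEX at day 7, TAA at day 30 and DEX at day 30. Without adjustment, p was under 0.05 for 4 of the 68 for TAA at day 7 (3.95% of all genes), 6 for DEX at day 7 (3.91%), 6 for TAA at day 30 (7.24%) and 6 for DEX at day 30 (11.5%). The median difference over the 68 was 0.046 for TAA and -0.035 for DEX at day 7, and -0.044 for TAA and -0.042 for DEX at day 30. The medians over all genes were -0.00071, -0.0047, -0.025 and -0.038 in the same order. These drug comparisons share the vehicle arrays of their day.

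**Figure D2:**
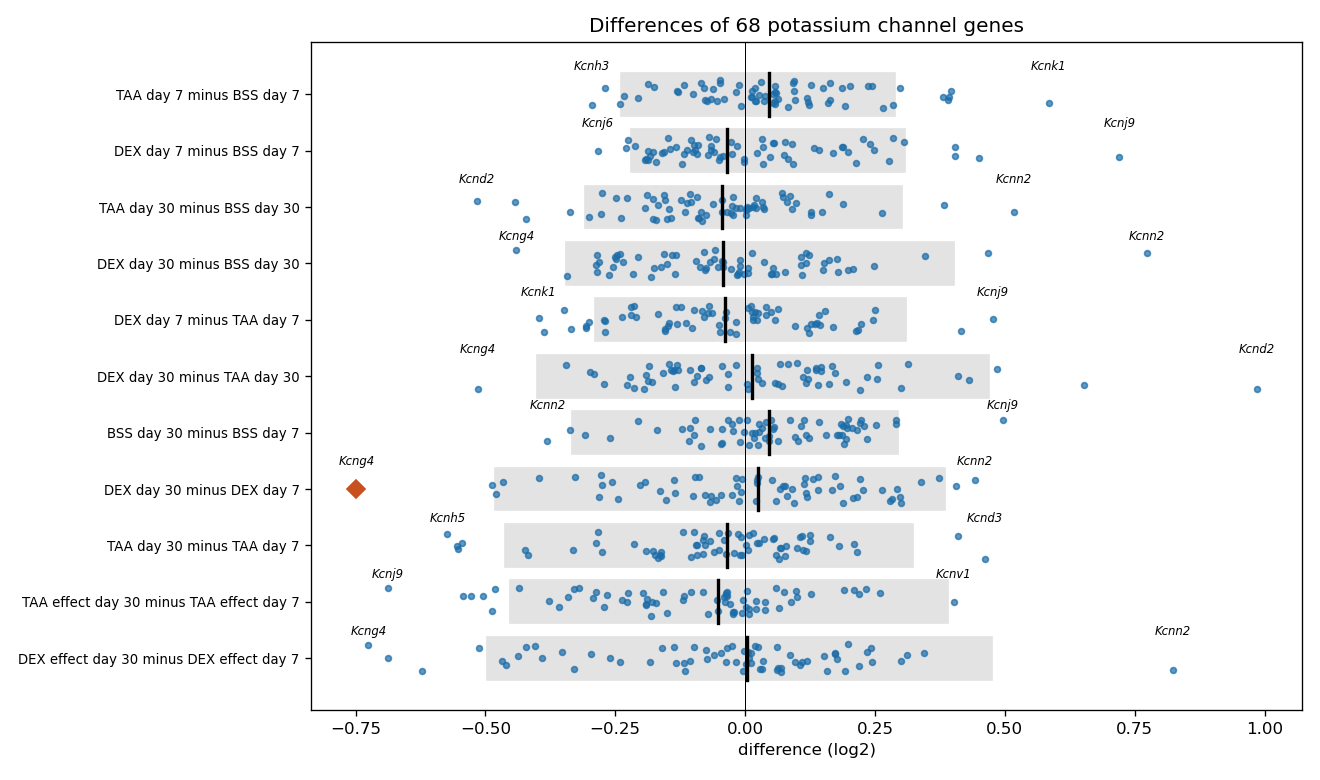
Log2 differences of the 68 genes (dots) in each comparison, with their median (black line), the 5th to 95th percentile of all 18193 genes (grey box) and genes with adjusted p under 0.05 (orange diamond). Only Kcng4, at -0.75 in DEX day 30 minus DEX day 7, is marked, and the medians of the 68 lie between -0.053 and 0.046.

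Kcng4 encodes a silent subunit that modifies partner subunits and is used as a genetic marker of alpha-type ganglion cells in mouse retina. Its values were 0.45, 0.32 and -0.04 on the DEX day 7 arrays and -0.51, -0.72 and -0.29 on the DEX day 30 arrays. It stood at -0.14, 0.02 and -0.0037 with BSS at day 7 and at 0.0037, -0.13 and -0.07 with BSS at day 30. With TAA it stood at 0.02, 0.32 and 0.34 at day 7 and at 0.05, 0.17 and -0.18 at day 30. The 3 DEX day 30 arrays were the lowest of the 18 and overlapped no other group. From day 7 to day 30 of DEX it fell by 0.75 on the log2 scale (-0.75 ± 0.14, 95% interval -1.05 to -0.45, adjusted p = 0.0225), to 0.595 of its day 7 value. Against the vehicle at day 30 the difference was -0.44 ± 0.14 (adjusted p = 0.362), and against TAA at day 30 it was -0.51 ± 0.14 (adjusted p = 0.104). The change of the DEX minus BSS difference between the days was -0.73 ± 0.20 (adjusted p = 0.406). The call was lost without DEX day 7 replicate 1 (-0.64, adjusted p = 0.146), DEX day 7 replicate 2 (-0.71, 0.0966), DEX day 30 replicate 1 (-0.75, 0.0846) or DEX day 30 replicate 2 (-0.64, 0.0991), and with the DEX arrays fitted alone (adjusted p = 0.0619). Kcng4 has 1 probe set, so no other probe set reads it.

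Marker genes of other cell types also differed in this comparison, and their part in the Kcng4 result was not tested. The mean of 11 reactive gliosis genes was 0.50 to 0.75 on the DEX day 7 arrays and -1.11 to 0.24 on the DEX day 30 arrays, with 0 of 11 higher at day 30 and 2 passing as lower. The mean of 12 microglia and leukocyte genes ran from 0.13 to 0.67 at day 7 and from -0.59 to 0.22 at day 30, with 0 of 12 higher and 1 passing as lower. The mean of 12 lens genes was 0.57 higher at day 30, with 11 of 12 higher and 0 passing, and its arrays overlapped between the days (-1.50 to -0.06 and -1.52 to 0.55). The 10 ganglion cell markers differed by a mean of -0.10 with 6 of 10 higher at day 30 and 0 passing, and 8 bipolar cell markers by -0.15 with 1 of 8 higher and 0 passing. In whole retina, fewer cells of a type and less RNA per cell cannot be told apart.

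**Figure D3:**
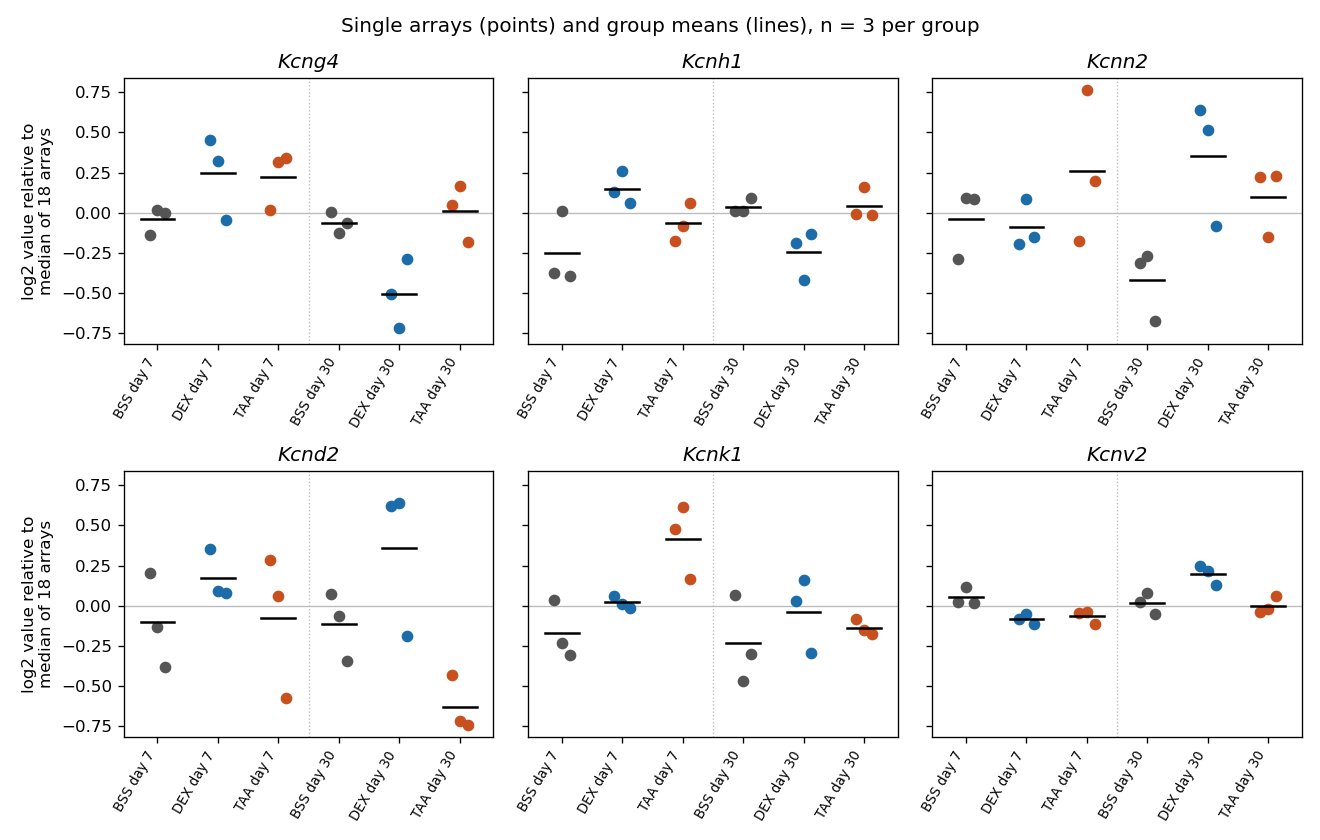
Log2 values of 6 genes on every array (dots) with the mean of each group of 3 arrays (bars), relative to the gene's median over 18 arrays. The 3 DEX day 30 arrays of Kcng4 (-0.72 to -0.29) lie below all other arrays, the 3 of Kcnv2 (0.13 to 0.25) lie above them, and Kcnk1 is highest on 2 of the TAA day 7 arrays (0.48 and 0.61).

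Of the other silent modifiers, Kcnv2, the photoreceptor subunit, had the narrowest spread of the genes plotted by array. It stood at 0.25, 0.21 and 0.13 on the DEX day 30 arrays and at -0.08, -0.05 and -0.11 on the DEX day 7 arrays. On the vehicle arrays it was 0.02, 0.12 and 0.02 at day 7 and 0.03, 0.08 and -0.05 at day 30, and on the TAA arrays -0.04, -0.04 and -0.11 at day 7 and -0.04, -0.02 and 0.06 at day 30. The 3 DEX day 30 arrays were the highest of the 18 and the groups did not overlap, but the differences did not pass: 0.28 ± 0.09 against DEX at day 7 (adjusted p = 0.0826), 0.18 ± 0.09 against vehicle (adjusted p = 0.436) and 0.19 ± 0.09 against TAA (adjusted p = 0.265). Of 10 rod markers, 9 were higher at DEX day 30 than at DEX day 7, with a mean difference of 0.16 and 0 passing, and their part in the Kcnv2 values was not tested. At day 7 both drugs had Kcnv2 arrays wholly below the vehicle's, with a difference of -0.12 ± 0.09 for TAA and -0.13 ± 0.09 for DEX.

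Kcng1, another silent subunit, read -0.03, -0.26 and -0.06 with TAA at day 7 and 0.15, 0.11 and 0.20 with BSS. The groups did not overlap, the difference was -0.27 ± 0.11, and Kcng1 is among the few genes whose probe sets ran together over the arrays (median r of 0.52 over 18 arrays). Kcnv1 stood at -0.25, -0.08 and -0.33 with TAA at day 7, -0.05, 0.05 and 0.07 with BSS at day 7 and 0.25, 0.16 and 0.16 with TAA at day 30. TAA at day 7 was lowest and TAA at day 30 highest of the 3, without overlap, and the differences were -0.24 ± 0.12 against BSS and 0.41 ± 0.12 between the TAA days (adjusted p = 0.217). The other 2 probe sets of Kcnv1 gave 0.07 and 0.05 for the latter, and their median r with the kept one was 0.12. Over other processing choices the difference against BSS ran from -0.35 to -0.053. Kcnf1 was 0.61, 0.59 and 0.01 with TAA at day 7 and 0.14, -0.10 and -0.01 with BSS, 2 high arrays and 1 within the vehicle's range, with a difference of 0.39 ± 0.15 that its other probe set gave as -0.18. Kcns1, also a silent subunit, read 0.01, -0.31 and -0.20 with BSS, -0.09, -0.20 and 0.05 with DEX and 0.04, -0.15 and -0.01 with TAA at day 7. At day 30 it read 0.21, -0.05 and -0.10 with BSS, 0.07, -0.21 and 0.17 with DEX and 0.24, 0.01 and 0.26 with TAA. Its groups overlapped in every comparison of agents within a day. Kcns2 stood at 0.03, 0.0007 and 0.15 in vehicle eyes at day 7 and -0.23, -0.13 and -0.24 at day 30, lower without overlap, with a difference of -0.26 ± 0.12.

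For TAA against vehicle at day 7, the groups did not overlap for 6 of the 68 genes, 3 higher and 3 lower, where 9.32% of all genes did not overlap (4.35% higher, 4.96% lower). The channel that differed most was Kcnk1, a two-pore-domain subunit that carries leak current. It read 0.48, 0.61 and 0.16 on the TAA day 7 arrays and 0.04, -0.23 and -0.30 on the BSS day 7 arrays. All 3 TAA arrays were above all vehicle arrays, and the difference was 0.58 ± 0.15 (adjusted p = 0.893), or 1.5-fold. The other probe set of Kcnk1 followed it over the arrays (r = 0.75) and gave 0.41 ± 0.11. At day 30 of TAA the values were -0.08, -0.15 and -0.18, so the difference between the TAA days was -0.55 ± 0.15 (adjusted p = 0.198; -0.32 ± 0.11 by the other probe set). With DEX at day 7 Kcnk1 read 0.06, 0.01 and -0.01, below all TAA arrays of that day, with a difference of -0.40 ± 0.15 (adjusted p = 0.727; -0.19 with array weights). The mean of 15 known glucocorticoid target genes was 1.02, 0.68 and 0.24 on the same TAA day 7 arrays, -0.03, -0.07 and -0.02 on the BSS day 7 arrays and -0.01, 0.11 and -0.01 on the DEX day 7 arrays. The mean of the 11 gliosis genes was 0.84, 2.17 and 0.04 on the TAA day 7 arrays. The part of either list in the Kcnk1 values was not tested.

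Other channels stood apart on the TAA day 7 arrays by less. Kcna4, the Kv1 subunit of fast inactivating current, read 0.09, 0.61 and 0.15 against -0.10, -0.01 and -0.23 with vehicle, a difference of 0.39 ± 0.19 without overlap that was 0.23 without TAA day 7 replicate 2. Kcnh5, an EAG subunit, read 0.30, 0.78 and 0.04 against 0.01, 0.01 and -0.03, and its difference of 0.38 ± 0.16 was 0.18 without TAA day 7 replicate 2. The same array held the highest value of both genes. In all, 44 of the 68 channels were above the vehicle with TAA at day 7, against 49.8% of all genes, and the two-pore-domain subunits made up 9 of them, of 12 measured. Without TAA day 7 replicate 1 the median over the 68 channels was -0.012 in place of 0.046.

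For DEX against vehicle at day 7, 12 of the 68 genes did not overlap, 4 higher and 8 lower, where 14.3% of all genes did not (7.21% higher, 7.08% lower). The differences highest on the list were in the subunits of G protein-gated inward rectifiers, which hyperpolarise neurons after transmitter binding. Kcnj9 read 0.27, 0.05 and 0.13 with DEX and 0.07, -0.81 and -0.97 with vehicle. The vehicle replicate 1 array lay within the DEX range, so the groups overlapped, and the difference was 0.72 ± 0.26, while its other 3 probe sets gave 0.11, 0.10 and 0.01. Kcnj3, which forms channels with Kcnj9 and Kcnj6, read 0.41, 0.29 and 0.15 with DEX and -0.35, -0.11 and -0.04 with vehicle. All DEX arrays were higher, with a difference of 0.45 ± 0.21, and the other 3 probe sets gave -0.06, 0.24 and 0.23. Kcnj6 went the other way, at -0.36, -0.42 and -0.08 with DEX and -0.01, -0.02 and 0.03 with vehicle. Its DEX arrays were all lower, with a difference of -0.28 ± 0.12, and its other 4 probe sets gave 0.04, -0.13, -0.08 and 0.12. The point differences of these 3 subunits of 1 channel type differed in sign.

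The Kv3 subunit Kcnc1, which supports fast spiking, read 0.36, 0.26 and 0.41 with DEX and 0.24, -0.16 and -0.27 with vehicle at day 7. The DEX arrays were all higher (0.40 ± 0.17), and the other 3 probe sets gave 0.08, -0.02 and 0.05. Kcnh1, an EAG subunit, read 0.13, 0.26 and 0.06 with DEX and -0.37, 0.01 and -0.39 with vehicle. Its DEX arrays lay above all vehicle arrays (0.40 ± 0.12, unadjusted p = 0.0039), and its other probe set gave 0.03. Kcnk13, a two-pore-domain subunit known from microglia, stood at -0.36, -0.23 and -0.29 with DEX, -0.16, -0.08 and 0.05 with vehicle and 0.11, 0.13 and 0.04 with TAA. The DEX arrays were the lowest, with a difference of -0.23 ± 0.10 against vehicle and -0.39 ± 0.10 against TAA (adjusted p = 0.485). The other probe set of Kcnk13 gave 0.05 for DEX against TAA and had r = -0.37 with the kept one over the 18 arrays. The mean of the 12 microglia and leukocyte markers was 0.67, 0.59 and 0.13 on those DEX arrays and 0.03, -0.16 and 0.25 with vehicle. These array means overlapped. The markers were above the vehicle for 12 of 12 genes with 0 passing, and their part in the Kcnk13 values was not tested. Of the 68 channels, 29 were above the vehicle with DEX at day 7, against 48.4% of all genes, and of the 12 two-pore-domain subunits 3 were.

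At day 30 of TAA, 13 of the 68 genes did not overlap the vehicle, 5 higher and 8 lower, where 13.4% of all genes did not (5.86% higher, 7.54% lower). Kcnn2, which encodes a small conductance calcium-activated channel, had the widest range of the 68 genes over the arrays, 1.43 log2 units. It read 0.22, -0.15 and 0.23 with TAA and -0.32, -0.27 and -0.67 with vehicle at day 30. The TAA arrays were all higher, by 0.52 ± 0.22. The vehicle arrays of day 30 were themselves low, since those of day 7 read -0.29, 0.09 and 0.09. Kcnk2, a two-pore-domain subunit opened by stretch and lipids, read 0.09, 0.68 and -0.03 with TAA and -0.13, -0.11 and -0.16 with vehicle, without overlap. Its difference of 0.38 ± 0.17 was 0.17 without TAA day 30 replicate 2.

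The lower genes were led by Kcnd2, the Kv4 subunit of the A-type current. It stood at -0.43, -0.72 and -0.74 with TAA and 0.07, -0.06 and -0.35 with vehicle at day 30. The TAA arrays were all lower, with a difference of -0.52 ± 0.23, but the other 3 probe sets of Kcnd2 gave 0.03, 0.15 and 0.07. Kcne2, an accessory subunit that associates with several pore types, read -0.14, -0.80 and -0.02 against 0.16, 0.01 and 0.15, and its difference of -0.42 ± 0.16 was -0.18 without TAA day 30 replicate 2. Kcna6 stood at -0.21, -0.0014 and -0.22 with TAA and 0.0014, 0.43 and 0.15 with vehicle, a difference of -0.34 ± 0.12 that was -0.22 without BSS day 30 replicate 2 and -0.13 with the mean of its 3 probe sets. All 3 Kv3 subunits had negative differences, with Kcnc2, a partner of Kcnc1, at -0.11, -0.32 and -0.15 against -0.10, 0.01 and -0.05 without overlap (-0.15 ± 0.11). Of the 68 channels 26 were above the vehicle, against 44.2% of all genes. Of the marker lists, 12 of 12 lens genes were above the vehicle (mean difference 0.34) and 1 of 12 microglia and leukocyte genes was (-0.26), with 0 passing, and their part in the channel values was not tested.

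At day 30 of DEX, 11 of the 68 genes did not overlap the vehicle, 4 higher and 7 lower, where 14.4% of all genes did not (4.46% higher, 9.94% lower), and 26 of the 68 were above the vehicle, against 42.1% of all genes. Kcnn2 was highest, at 0.64, 0.51 and -0.09 with DEX against the -0.32, -0.27 and -0.67 of the vehicle. The 2 groups did not overlap, and the difference was 0.77 ± 0.22 (adjusted p = 0.362). It was 0.99 (adjusted p = 0.0331) without DEX day 30 replicate 3, where 1.47% of the 68 and 3.82% of all genes passed. At day 7 the DEX arrays of Kcnn2 read -0.19, 0.09 and -0.15, and the change of the DEX effect between the days was 0.82 ± 0.31 (adjusted p = 0.511). Kcnk2 read 0.42, -0.03 and -0.05 with DEX, above the vehicle on all arrays by 0.25 ± 0.17, and by 0.10 without DEX day 30 replicate 1. Marker lists differed in the same comparison: 0 of 12 lens genes were above the vehicle (mean difference -1.61, array means of -1.52 to 0.55 with DEX and -0.17 to 2.16 with vehicle), and 0 of 12 microglia and leukocyte genes were (-0.41, array means of -0.59 to 0.22 and -0.52 to 0.55). None of these genes passed, and their part in the channel differences between DEX and vehicle at day 30 was not tested.

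After Kcng4, the lower genes at DEX day 30 included Kcnc4, a Kv3 subunit of fast inactivating current. It read -0.30, -0.35 and -0.02 with DEX and 0.19, 0.15 and 0.02 with vehicle, lower on all arrays, with a difference of -0.34 ± 0.13 (adjusted p = 0.386). Its other probe set followed it (r = 0.56) and gave -0.35 ± 0.10 against vehicle. Between the DEX days the kept probe set gave -0.24, with day 7 arrays of 0.08, -0.15 and 0.14 that overlapped those of day 30. The other probe set of Kcnc4 gave -0.57 ± 0.10 between the DEX days, and the mean of both passed. Kcna5 read -0.13, -0.28 and -0.06 with DEX and 0.14, 0.06 and 0.06 with vehicle (-0.25 ± 0.10), without overlap. Kcnh1 was at -0.19, -0.42 and -0.13 with DEX and 0.01, 0.01 and 0.09 with vehicle, lower on all arrays (-0.28 ± 0.12; -0.19 with the mean of its 2 probe sets), where at day 7 it had been higher. Its relative Kcnh2, the ERG subunit, read -0.25, -0.36 and -0.10 with DEX against 0.14, -0.01 and 0.0011, also without overlap. The change of the DEX effect on Kcnh1 between the days was -0.69 ± 0.17 (adjusted p = 0.406), and as small as -0.41 over other processing choices. The 2 probe sets of Kcnh1 had r = -0.0067 over the 18 arrays. Of the 68 channels, 0 passed for the change of the DEX effect (0% of all genes), with 7 at an unadjusted p under 0.05 (8.56%). For the change of the TAA effect 0 passed (0% of all genes) and 4 had an unadjusted p under 0.05 (6.01%).

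Between day 7 and day 30 of DEX, 17 of the 68 genes did not overlap, 8 higher and 9 lower, where 26.7% of all genes did not (7.82% higher, 18.9% lower), and 12 had an unadjusted p under 0.05, against 20.1%. Besides Kcng4 and Kcnv2, Kcnh1 differed by -0.40 ± 0.12 (adjusted p = 0.0799; -0.08 by its other probe set), and the accessory subunit Kcne1l by -0.49 ± 0.15 (adjusted p = 0.0886). Kcne1l read 0.11, 0.19 and 0.31 at day 7 and -0.32, -0.35 and -0.18 at day 30, all lower at the later day. Among the two-pore-domain subunits, 9 of 12 were higher at day 30, with a median of 0.15, and 0 passed. Of all 68 channels 37 (54.4%) were higher, with a median of 0.024, and the median over all genes was -0.020. For TAA between the same days 11 of the 68 genes did not overlap, against 12.6% of all genes, 0 passed (0% of all genes) and 10 had an unadjusted p under 0.05 (12.3%). Among the lowest there were Kcnh5 (-0.57 ± 0.16, adjusted p = 0.198), Kcnk1 and Kcnf1 (-0.54 ± 0.15, adjusted p = 0.217), each of which had been high on TAA day 7 replicate 2. Without that array the difference of Kcnh5 was -0.37. Kcnf1 was also high on TAA day 7 replicate 1 (0.61), and its difference was -0.44 without replicate 1. Over other processing choices the Kcnf1 difference was as small as -0.15, and its 2 probe sets had r = -0.59 over the 18 arrays.

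In the vehicle eyes alone, 13 of the 68 genes did not overlap between the days, 8 higher and 5 lower at day 30, where 22.8% of all genes did not (10.6% higher, 12.2% lower), 0 passed (0.0275% of all genes) and 4 had an unadjusted p under 0.05 (7.81%). Kcnk10, a two-pore-domain relative of Kcnk2, read 0.03, -0.08 and -0.28 at day 7 and 0.04, 0.22 and 0.29 at day 30, higher on all arrays by 0.29 ± 0.15. Kcnh1 was also higher at the later day, by 0.29 ± 0.12 (0.17 with the mean of its 2 probe sets), from -0.37, 0.01 and -0.39 to 0.01, 0.01 and 0.09. Kcnq3, a subunit of the M-current that damps repeated firing, stood at -0.01, 0.22 and 0.20 at day 7 and -0.28, -0.12 and -0.13 at day 30, lower on all arrays, with a difference of -0.31 ± 0.12, while its other probe set gave 0.15. Kcna1, a Kv1 subunit of axons, read -0.21, 0.41 and 0.08 at day 7 and -0.32, -0.13 and -0.28 at day 30, with 1 day 7 array inside the day 30 range, and differed by -0.34 ± 0.15. That difference was -0.18 without BSS day 7 replicate 2 and -0.044 with the mean of its 4 probe sets, and the kept probe set had a median r of -0.19 with the others over the 18 arrays. Of the 12 inward rectifiers 11 were higher at day 30, with a median of 0.12 and 0 passing, where 46 of all 68 channels (67.6%) and 50.6% of all genes were higher. All 12 lens genes were also higher at day 30 in the vehicle eyes (mean difference 1.36, array means of -0.33 to 0.07 at day 7 and -0.17 to 2.16 at day 30, 0 passing), and their part in these values was not tested.

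Kcna2, the partner of Kcna1, read 0.12, -0.02 and -0.17 with BSS, -0.31, -0.12 and 0.01 with DEX and 0.03, -0.61 and -0.01 with TAA at day 7. At day 30 it read 0.18, 0.17 and 0.17 with BSS, -0.44, -0.14 and 0.34 with DEX and -0.07, 0.11 and 0.01 with TAA. The TAA arrays of day 30 lay below the vehicle's, with a difference of -0.16 ± 0.18, and the DEX arrays spanned them. Kcna1 with its neighbours on chromosome 6, Kcna5 and Kcna6, differed by 0.05 ± 0.15, -0.25 ± 0.10 and 0.15 ± 0.12 from the vehicle at DEX day 30, and none passed.

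Other retinal channels were read as follows in the remaining groups. Kcna1 read -0.28, 0.13 and 0.06 with DEX and 0.08, 0.27 and 0.02 with TAA at day 7, and -0.01, -0.18 and -0.40 with DEX and 0.16, -0.11 and 0.01 with TAA at day 30. Kcnc1 read 0.24, -0.34 and -0.12 with TAA at day 7, and 0.11, 0.18 and -0.02 with BSS, -0.35, -0.04 and 0.02 with DEX and -0.19, 0.11 and -0.39 with TAA at day 30. The DEX day 30 arrays of Kcnc1 were all below those of DEX day 7, with a difference of -0.47 ± 0.17 (adjusted p = 0.13; -0.21 with the mean of its 4 probe sets). Kcnc2 read -0.13, 0.22 and 0.09 with BSS, 0.13, 0.12 and 0.02 with DEX and 0.10, -0.01 and 0.15 with TAA at day 7, and -0.03, 0.08 and -0.23 with DEX at day 30. Kcnh1 read -0.18, -0.08 and 0.06 with TAA at day 7 and -0.01, 0.16 and -0.01 at day 30. Neither gene had TAA arrays clear of the vehicle at day 7.

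Kcnq3 read 0.06, 0.08 and 0.07 with DEX and 0.22, 0.15 and 0.06 with TAA at day 7, and 0.01, -0.01 and -0.20 with DEX and -0.02, -0.50 and -0.03 with TAA at day 30. For both drugs the day 30 arrays of Kcnq3 lay wholly below those of day 7, as they did for the vehicle. These are all readings of the kept probe set, which had r = -0.29 with the gene's other over the 18 arrays. Kcne2 read 0.07, 0.01 and -0.02 with BSS, -0.10, -0.21 and -0.20 with DEX and -0.01, 0.05 and 0.26 with TAA at day 7, and 0.32, 0.11 and -0.14 with DEX at day 30. Its DEX day 7 arrays were below those of both other agents. Kcnk2 read -0.08, 0.21 and 0.09 with BSS, -0.09, 0.09 and -0.08 with DEX and 0.14, 0.41 and 0.03 with TAA at day 7. Kcnd2 read 0.21, -0.13 and -0.38 with BSS, 0.35, 0.09 and 0.08 with DEX and 0.29, 0.06 and -0.58 with TAA at day 7. For these last 2 genes the drug groups overlapped the vehicle at that day. Kcnj9 read 0.06, -0.41 and -0.63 with TAA at day 7 and 0.16, 0.05 and -0.43 with BSS at day 30. Kcnn2 read -0.17, 0.76 and 0.20 with TAA at day 7, and 1 of those arrays, replicate 2, was the highest of all 18.

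The ATP-sensitive channel subunits Kcnj8, of pericytes, and Kcnj11, of neurons, had like ranges over the 18 arrays (0.93 and 0.91 log2 units). Kcnj8 read -0.14, -0.04 and 0.11 with BSS, 0.03, 0.57 and 0.24 with DEX and -0.36, 0.47 and 0.31 with TAA at day 7, with a wide spread within each drug group. At day 30 it read -0.001, -0.01 and 0.001 with BSS, 0.001, -0.12 and -0.02 with DEX and 0.10, -0.07 and -0.12 with TAA, a narrow range for all 3 agents. Kcnj11 was 0.10, 0.13 and 0.27 with BSS and 0.01, 0.03 and -0.12 with TAA at day 30, lower without overlap, with a difference of -0.19 ± 0.18. At DEX day 30 it read -0.33, -0.22 and 0.20, and at day 7 it read 0.13, -0.19 and -0.14 with BSS, -0.20, -0.07 and -0.01 with DEX and 0.19, -0.64 and 0.01 with TAA, where 1 TAA array stood far below the rest.

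Of the strong inward rectifiers, Kcnj12 read 0.10, -0.12 and -0.17 with BSS, 0.22, 0.05 and 0.29 with DEX and 0.34, -0.09 and -0.17 with TAA at day 7, and 0.21, -0.03 and -0.01 with BSS, 0.01, -0.03 and -0.27 with DEX and 0.11, 0.32 and -0.04 with TAA at day 30. Kcnj14 read 0.07, -0.06 and -0.01 with BSS, -0.13, -0.12 and -0.06 with DEX and 0.04, -0.32 and 0.02 with TAA at day 7, and 0.09, 0.01 and 0.07 with BSS, 0.06, -0.02 and -0.01 with DEX and 0.01, -0.44 and 0.01 with TAA at day 30. The Kcnj12 groups overlapped in every comparison of agents within a day, and between the DEX days the day 30 arrays lay wholly below those of day 7. Both TAA replicate 2 arrays held the lowest values of Kcnj14, at -0.32 and -0.44. Kcnj16, which forms a channel with Kcnj10 in Müller glia, differed by -0.30 ± 0.13 (-0.14 with the mean of its probe sets) for TAA and -0.13 ± 0.13 for DEX against vehicle at day 30. Kcnq1ot1 read -0.18, 0.63 and 0.18 with TAA and -0.34, -0.31 and 0.09 with BSS at day 7, and its groups overlapped in every comparison of agents within a day.

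DEX and TAA were also set against each other within a day, with the caution that the labels give no dose, so no match of dose could be made. At day 7, 6 of the 68 genes did not overlap (11.7% of all genes), 0 passed (0.0055%) and 5 had an unadjusted p under 0.05 (6.47%). At day 30, 12 did not overlap (14.8%), 0 passed (0%) and 9 had an unadjusted p under 0.05 (16.6%). The difference highest at day 30 was that of Kcnd2, with 0.62, 0.64 and -0.19 for DEX and -0.43, -0.72 and -0.74 for TAA. All DEX arrays were above all TAA arrays, by 0.99 ± 0.23 (95% interval 0.50 to 1.47, adjusted p = 0.0806). The other 3 probe sets of Kcnd2 gave 0.28, -0.19 and -0.02. Kcna6 read 0.41, 0.14 and 0.48 with DEX and -0.21, -0.0014 and -0.22 with TAA, also without overlap (0.49 ± 0.12, interval 0.22 to 0.75, adjusted p = 0.0898), and its other 2 probe sets gave -0.09 and 0.56. Kcnj9 differed by 0.65 ± 0.26 (adjusted p = 0.226) with arrays of 0.36, 0.30 and -0.25 for DEX and -0.81, -0.05 and -0.69 for TAA, which overlapped. Without DEX day 30 replicate 3, Kcnd2 passed at 1.26 (adjusted p = 0.0095) and Kcng4 at -0.62 (adjusted p = 0.0248), which made 2.94% of the 68 against 6.89% of all genes.

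Of 42 listed partner genes of these channels (big-conductance channels, accessory subunits, sulfonylurea receptors, HCN channels, sodium pump subunits, and cotransporters and exchangers), 33 were measured. Between day 7 and day 30 of DEX 3 of the 33 passed, all lower. In that comparison 2.63% of all genes passed, and 2.04% passed as lower. In the other comparisons 0 of the 33 passed, against at most 0.0275% of all genes. Fxyd1, a small regulator of the sodium pump, read 0.45, 0.38 and 0.16 at day 7 and -0.77, -0.81 and -0.27 at day 30 of DEX, and fell without overlap (-0.95 ± 0.17, adjusted p = 0.0198). Fxyd7, of the same family, fell by 0.71 (-0.71 ± 0.16, adjusted p = 0.0326). Slc12a4, a potassium chloride cotransporter, fell by 0.57 (-0.57 ± 0.12, adjusted p = 0.0283). The 3 DEX day 30 arrays of Slc12a4 (-0.53, -0.60 and -0.21) lay below those of day 7 (0.10, -0.01 and 0.27). With TAA, Fxyd1 also fell without overlap, from 0.11, 0.27 and 0.10 at day 7 to -0.06, -0.51 and -0.10 at day 30. So did Slc12a4, from 0.26, 0.27 and 0.07 to 0.05, 0.02 and -0.12. Fxyd7 overlapped between the TAA days, at 0.33, -0.05 and 0.52 and then -0.10, -0.40 and -0.02. In the vehicle eyes the days overlapped for all 3 genes. These 3 genes were not refitted without single arrays.

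How far a value could be read from a single probe set was limited. The 68 genes had 134 probe sets, 32 genes having 1 and 36 more than 1. Over those 36 genes the correlation over the 18 arrays between the probe set kept and the gene's others had a median of 0.067, and over the 9010 genes of the table with more than 1 probe set it was 0.185. The correlation was above 0.5 for 5 of the 36 channels (13.9%, against 19.4% of the 9010) and below 0 for 16 (44.4%, against 30.1%). The 5 were Kcnh3 (r = 0.79), Kcnk1 (0.75), Kcnk10 (0.65), Kcnc4 (0.56) and Kcng1 (0.52), and Kcna2 was lowest at -0.69. Thus Kcnk1 for TAA against vehicle at day 7 and Kcnc4 for DEX against vehicle at day 30 were read alike by both probe sets. The day 7 DEX differences of Kcnj9, Kcnc1 and Kcnh1 were larger on the kept probe set than on any other of the gene. So was the day 30 DEX minus TAA difference of Kcnd2.

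**Figure D4:**
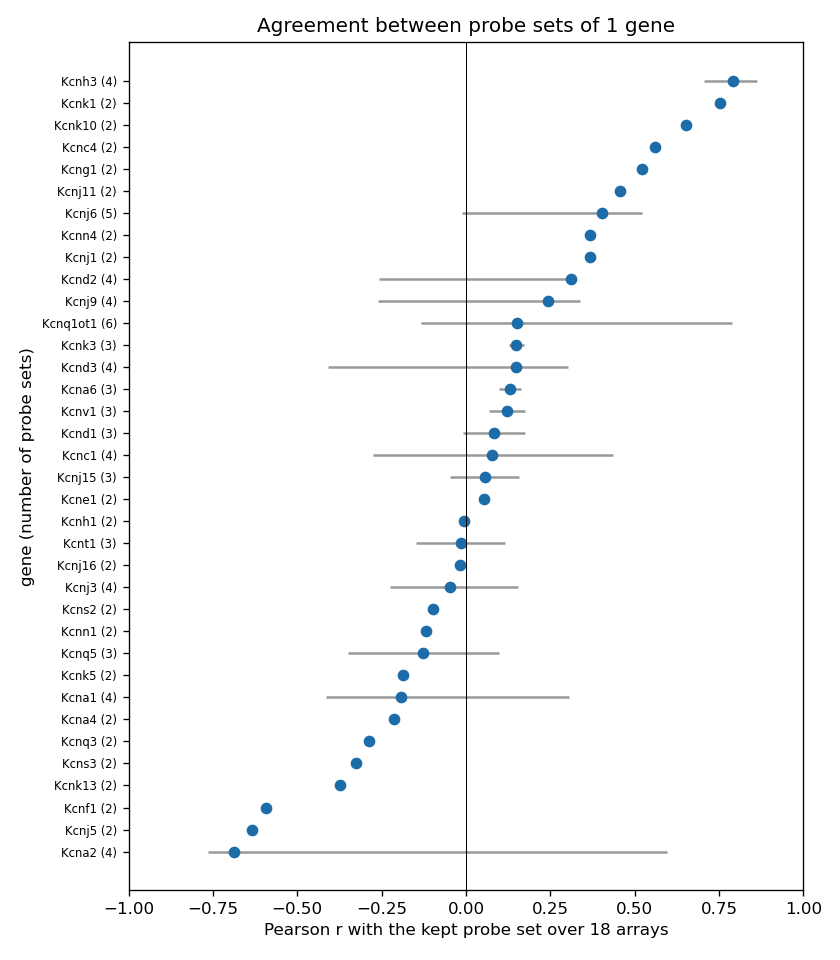
Correlation over 18 arrays between the kept probe set and the other probe sets of each of the 36 channel genes that have more than 1 (dot, median; line, lowest to highest). The dots of 5 genes lie above 0.5 and those of 16 lie below 0.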

How the data were processed

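The deposited table holds relative log2 values, which the authors made with RMA, per the submitters' processing notes. Its version and settings are not given in the sources used here. Per the labels' protocols, RNA was amplified by a two-cycle method before hybridisation. All 45101 probe sets had a median of 0 over the 18 arrays (to rounding), so the values were centred. That the base is 2 and that a higher value means more RNA follow RMA's convention, since the values alone do not show it.

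Probe sets were named from the platform annotation. Of 45101, 64 were controls, 34945 were annotated with 1 gene and used, 932 with several, and 9160 had no name here. Each of the 18193 genes was read by 1 probe set, that with the widest interquartile range across arrays, a choice that favours probe sets that vary. No other filter or normalization was used.

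All genes entered 1 linear model in limma 3.58.1 (R 4.3.3) with a mean for each of the 6 groups (12 residual and 5.21 prior degrees of freedom) and Benjamini-Hochberg adjustment over all genes. The fit was tried on simulated independent noise with the same spread on every array. The differences added there were larger than any channel gene's difference between groups here. That trial does not cover smaller differences or arrays of unequal spread. The p-values rest on the spread between the 3 biological replicates within each group, pooled over all 6 groups. Arrays of groups outside a comparison therefore enter its p-values, and the number of arrays limits their precision. No pair of arrays held identical values. Replicate numbers were not taken as pairs in this model, and no scan date or batch was used.

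Arrays of all 6 groups were given for the channel gene that passed, for the 3 widest genes, and for genes with a textbook role in retina. For the 2 highest and 2 lowest non-overlapping differences of a comparison, at least the arrays of the compared groups were given. These comparisons were each drug against vehicle, and vehicle between days. Partner genes of smallest p were named. The members, gene lists and rules were chosen with earlier results of these data known. Promoter windows come from RefSeq, build GRCm38.p6. Alternatives were other probe set choices, scalings, weights, blocks, filters and left-out arrays.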

Additional observations from a re-analysis of the deposited data

How the results depend on the processing

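Of 77 differences of single channel genes followed through 1293 alternative fits, 1288 fits kept the sign and 5 turned it. With the probe set most like the gene's others, Kcnj6 gave 0.040 for DEX minus BSS at day 7 and 0.039 at day 30, and Kcnd2 gave 0.073 for TAA minus BSS at day 30 and -0.023 for DEX minus TAA at day 30. With array weights Kcnf1 gave 0.0032 for DEX minus TAA at day 7. None of 528 fits without 1 array turned a sign, and 7 differences shrank under 0.5 of their size in such a fit. The 77 were chosen from these same arrays, by an unadjusted p under 0.05 or as named differences without overlap. Where groups do not overlap, leaving out 1 array cannot turn the sign, so the kept signs do not measure stability.

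The count of channel genes that passed moved with several choices. With array weights, which favour arrays close to their own group, it was 1 of 68 for DEX minus BSS at day 7 (1.47%, against 0.901% of all genes), 7 for the same at day 30 (10.3%, against 14.8%), 7 for DEX minus TAA at day 7 (10.3%, against 4.11%), 6 at day 30 (8.82%, against 13%), 1 between vehicle days (1.47%, against 2.9%), 15 between DEX days (22.1%, against 22.9%), 1 between TAA days (1.47%, against 0.39%) and 6 for the change of the DEX effect (8.82%, against 9.5%). Between DEX days it was 3 with the mean of all probe sets (Kcnc4, Kcng4 and Kcnv2, 4.41% against 2.51% of all genes), 3 without BSS day 7 replicate 1, TAA day 7 replicate 2 and TAA day 30 replicate 2 together (Kcnc1, Kcng4 and Kcnh2, 4.41% against 8.42%), and 0 with the DEX arrays alone (0.489% of all genes). Leaving out 1 array gave 0 to 2 between DEX days (1 to 1274 genes of all), 0 to 1 between TAA days (up to 31 genes of all), 0 to 1 for DEX minus BSS at day 30 (up to 695), 0 to 2 for DEX minus TAA at day 30 (up to 1253), and 0 elsewhere. Between TAA days the gene was Kcnf1, without TAA day 7 replicate 3, on a kept probe set that had r = -0.59 with the gene's other. The cause of these shifts was not tested.

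With the replicate number as a block, 1 gene (Kcnd2, adjusted p = 0.0397) passed for DEX minus TAA at day 30 (0.555% of all genes), and no other count of channel genes moved by over 1.5 times. Arrays of the same number in different groups had correlations of deviations from -0.228 to 0.464 (median 0.0388), with 16 of 45 over 0.1. Arrays of different numbers had a median of -0.0176. Whether arrays of the same number shared any handling was not tested, and the numbers were not taken as pairs. The median over the 68 genes moved by less than 0.034, the spread of the array medians within groups, in 169 of 188 fits. The medians themselves lay between -0.053 and 0.046, so a move of that size can turn the sign of some. Signal over background could not be judged from centred values.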
